A study of Mus musculus with 12 samples.

Results

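Alveolar macrophages labelled as lacking both Bach1 and Bach2 were compared with those labelled as lacking Bach1 alone. The comparison describes what goes with the further loss of Bach2 when Bach1 is already absent. The members were chosen by genotype, as the titles and characteristics of the samples give it. They are 6 of the 12 arrays of the study: 3 of Bach1 knockout mice (Bach1 KO) and 3 of Bach1 and Bach2 double knockout mice (DKO). The other 6 arrays, 3 of wild-type mice (WT) and 3 of Bach2 knockout mice (Bach2 KO), show the same loss with Bach1 present and entered the fit as a reference. Each array held the RNA of 1 mouse, and 3 independent mice were used per genotype. All mice were C57BL/6 females of 8 to 9 weeks, and their macrophages were sorted by flow cytometry from lung lavage fluid. Both groups compared here carry the Bach1 knockout, so that Bach2 is the only locus by which their labels differ. The labels do not say how the alleles were made.

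Bach1 and Bach2 are closely related transcriptional repressors that bind DNA as partners of small Maf proteins, at sites that AP-1 and Nrf2 can also use. Heme releases both from DNA, and Bach1 is best known for holding down Hmox1, the heme-degrading enzyme. Bach2 is best known in B and T lymphocytes, and mice without it develop lung disease with surfactant accumulation. Alveolar macrophages live in the airspaces, clear surfactant lipid with a program set by PPARgamma, and renew themselves by division.

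A level is the log2 signal of a probe minus the 75th percentile of the same array, so that 0 is the brightness below which 75% of that array's spots lie. Levels are given in the order of replicates 1, 2 and 3, and levels of different genes are not compared. A difference is the mean of the DKO arrays minus the mean of the Bach1 KO arrays, with its standard error from limma's fit (n = 3 mice per genotype). A gene rose or fell where its adjusted p in that fit, corrected by Benjamini-Hochberg over all 21541 genes and transcripts tested, was under 0.05. Where no array of the lower group was well above background, the difference is a bound, written as "at least" a fold, against the lowest level that was well above background on those arrays.

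Between 45.2% and 72.4% of the spots per array passed the scanner's background test, with 63.1%, 62.7% and 45.2% on the Bach1 KO arrays and 57.4%, 55.8% and 52.3% on the DKO arrays. In a principal component analysis of the 6 arrays the leading axis (73.4% of the variance) separated DKO (125.0 to 129) from Bach1 KO (-143.5 to -101.1), and the next axis set Bach1 KO replicate 3 apart at -102.4. Slide 1 held the WT and Bach1 KO arrays with Bach2 KO replicates 1 and 2, slide 2 held Bach2 KO replicate 3, and slide 3, scanned on another day, held the DKO arrays. Slide and scan day therefore cannot be told apart from the DKO genotype. For scale, the median difference between arrays of 1 genotype on 1 slide was 0.291 to 0.579, that of the Bach2 KO arrays across slides 1 and 2 was 0.433 and 0.483, and pairs of a DKO and a Bach1 KO array differed by 0.622 to 0.899. In bulk RNA fewer cells of a type and less RNA per cell cannot be told apart.

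The targeted genes were read first. The single Bach1 probe lay at 2.40, 2.55 and 2.53 in Bach1 KO and at 2.59, 3.13 and 1.72 in DKO, below its means of 3.93 ± 0.31 (SD, n = 3) in WT and 3.94 ± 0.16 (SD, n = 3) in Bach2 KO. Between the groups compared here it differed by -0.01 ± 0.32 (adjusted p = 0.987 by limma over all probes), a value that was 0.12 with quantile normalization and 0.27 with no scaling. Of the 2 Bach2 probes, 1 had no array well above background. The second lay at -2.72, -2.51 and -3.47 in Bach1 KO and at -5.46, -3.19 and -4.95 in DKO. DKO replicate 2 lay above Bach1 KO replicate 3, so that the groups overlapped, and the difference of -1.63 ± 1.25 did not pass (adjusted p = 0.491 by limma over all probes). The arrays therefore do not settle the Bach2 label of the DKO mice. The position of these probes with respect to the deletions is not stated in the labels.

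Many of the genes measured differed between DKO and Bach1 KO, in both directions. Of 21541 genes and transcripts tested, 5892 passed (27.4%), 2508 of them higher in DKO (11.6%) and 3384 lower (15.7%). Of these, 5243 (24.3%) differed at least 2-fold, and 576 rose and 394 fell at least 16-fold. The arrays of the groups did not overlap for 10115 genes and transcripts (47%), and for 5811 of the 5892 that passed. Among the rises, 393 were not detected above background by any Bach1 KO array, and among the falls 226 by any DKO array. With no scaling between arrays 4719 passed, and the share of rises among them moved from 42.6% to 57.9%, while the median difference of all genes moved from -0.18 to 0.10. With the filter that asks for a signal on all 6 arrays 4199 passed and 30.7% of them were rises.

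The 10 largest rises are taken only from genes whose groups did not overlap and for which 2 or 3 arrays of each genotype were well above background. An array that was not well above background still enters the difference. Larger fitted rises with 1 such Bach1 KO array, as in Il7r, Hbegf, Pdgfa, C1qa and Retnla, are given with their lists. Arg1, the arginase of alternatively activated macrophages, lay at -8.42, -3.57 and -1.19 in Bach1 KO and at 6.31, 6.87 and 7.60 in DKO, a difference of 11.32 ± 1.57 (adjusted p = 0.000236 by limma). The -8.42 of Bach1 KO replicate 1 was below the lowest level well above background on that array (-6.44). The Bach1 KO signals scattered widely, the lowest at background, and all DKO arrays lay far above them. Mmp12, macrophage elastase, lay at -4.30, -4.66 and -5.21 in Bach1 KO and at 3.82, 4.81 and 4.85 in DKO, a difference of 9.22 ± 0.51. F13a1, a coagulation factor chain of monocytes and tissue macrophages, rose by 9.62 ± 0.56, and Adam8, a membrane metalloproteinase, by 9.65 ± 0.68. A dimmer probe of F13a1 differed by 3.00, so that its place among the 10 rests on the brighter probe. The chemokines Ccl2 and Ccl8, which attract monocytes, rose by 9.18 ± 1.19 and 8.97 ± 0.44. The others of the 10 were Blnk, a B-cell linker protein also used in myeloid cells (9.20 ± 0.49), Lat2, an adaptor of immune receptors (9.21 ± 1.16), Kcnn4, a calcium-activated potassium channel (9.15 ± 0.54), and Car6, a secreted carbonic anhydrase (9.28 ± 0.67). Without Bach1 KO replicate 1 the difference was 9.30 for Arg1, 7.34 for Lat2, 7.40 for Ccl2 and 10.29 for Car6. Without Bach1 KO replicate 3 it was 12.92 for Arg1, 10.58 for Lat2, 10.10 for Ccl2, 8.89 for Adam8 and 8.56 for Car6, and without replicate 2 it was 10.04 for Ccl2 and 10.38 for Adam8.

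Other genes came up from signals that no Bach1 KO array had well above background. Ccl24, an eosinophil-attracting chemokine, lay at 6.34, 6.21 and 6.74 in DKO and rose at least 4508-fold (adjusted p = 1.09e-09 by limma). Ccl7, a further ligand for monocyte receptors, reached 6.04, 5.91 and 6.29 and rose at least 3531-fold. Rbp4, the retinol-binding protein of plasma, rose at least 3910-fold, Rai14, an actin-associated protein, at least 1703-fold, and C1qc, a chain of complement C1q, at least 1036-fold. Bach1 KO replicate 3 had the fewest spots above background, and without it the bounds were 7162 for Ccl24, 6213 for Rbp4, 5610 for Ccl7, 2706 for Rai14 and 1647 for C1qc.

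The 10 largest falls are given under the same limit of detection, which leaves out, among others, the larger fitted falls of Cidec, Krt19 and Cd300e, each well above background on 1 DKO array. Of the 10, Fabp1, Marco and Krt79 are on the list of alveolar macrophage identity genes. Fabp1, a fatty acid binding protein, lay at 6.56, 5.87 and 7.15 in Bach1 KO and at -5.09, -5.19 and -7.33 in DKO, a difference of -12.40 ± 0.62 (adjusted p = 9.42e-08 by limma). The -7.33 of DKO replicate 3 was below the lowest level well above background on that array (-5.67), so that the difference includes a background signal. Marco, a scavenger receptor for particles and bacteria, lay at 8.07, 7.55 and 8.44 in Bach1 KO and at -0.93, 0.02 and 0.33 in DKO, a difference of -8.21 ± 0.51. Krt79, a keratin of these macrophages, fell by 8.19 on the log2 scale (SE 0.29). In each of these genes the brightest DKO array lay far below the dimmest Bach1 KO array, without overlap. Alox5, the enzyme that starts leukotriene synthesis, differed by -8.92 ± 0.31, Fpr1, a receptor for bacterial formyl peptides, by -8.51 ± 0.29, and Flvcr2, a membrane transporter, by -9.33 ± 0.46. Lipf, a lipase (-9.62 ± 0.29), Ces2c, a carboxylesterase (-8.20 ± 0.47), Perp, a junction protein (-9.74 ± 0.65), and Lypd6b (-7.84 ± 0.82) were the remaining ones. Without DKO replicate 3 Fabp1 differed by -11.67 and Perp by -8.77, and without DKO replicate 2 Lypd6b differed by -6.94.

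For a further set of falls no DKO array was well above background. Wfdc10, a small secreted protein with a whey acidic domain, lay at 5.39, 4.31 and 5.05 in Bach1 KO and fell at least 1418-fold (adjusted p = 2.86e-08 by limma). Spag11b, a defensin-like peptide, fell at least 850.5-fold, Grb7, an adaptor protein, at least 568.2-fold, Dysf, the membrane repair protein dysferlin, at least 467.2-fold, and Rufy4, a vesicle traffic protein, at least 389-fold.

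**Figure D1:**
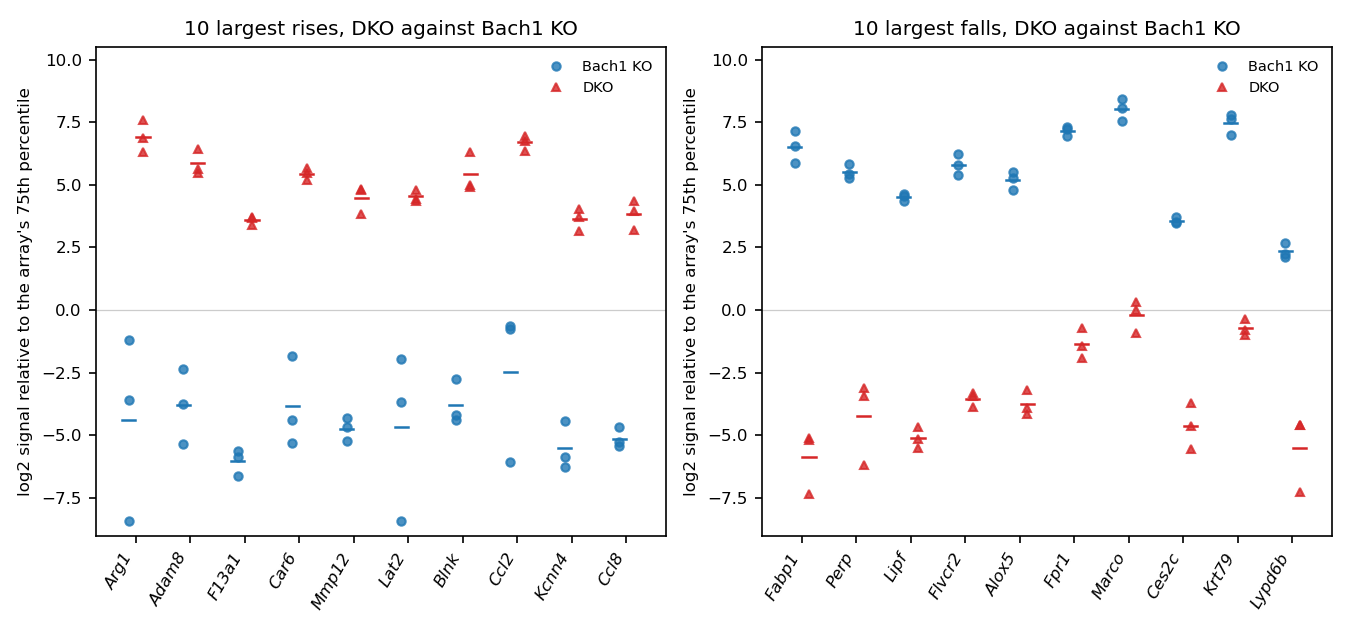
Level (log2 signal relative to the array's 75th percentile) on each of the 3 Bach1 KO arrays (circles) and 3 DKO arrays (triangles) for the 10 largest rises (left) and the 10 largest falls (right), taken only from genes for which 2 or 3 arrays of each genotype were well above background, with short lines at the group means. In every gene shown the 2 groups do not overlap, and Arg1 in Bach1 KO runs from -8.42, a signal not well above background, to -1.19.

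Promoters of a few genes that moved are shown because Bach factors are known to bind AP-1-like sites. Sites farther from the start sites were not searched. They were chosen after the values were seen. The sequences are the 250 bases before the start site, read 5′ to 3′ on the gene's strand, from RefSeq on GRCm38.p6. Capitals mark a match to TGAGTCA (the AP-1 site), to TGCTGAGTCA (an AP-1 site extended to a Maf recognition element, which contains the former), or to CTGATTGG (the Y box of MHC class II promoters, letters of an NF-Y site), searched on both strands.
Mmp12, chr9:7347124-7347373, plus strand: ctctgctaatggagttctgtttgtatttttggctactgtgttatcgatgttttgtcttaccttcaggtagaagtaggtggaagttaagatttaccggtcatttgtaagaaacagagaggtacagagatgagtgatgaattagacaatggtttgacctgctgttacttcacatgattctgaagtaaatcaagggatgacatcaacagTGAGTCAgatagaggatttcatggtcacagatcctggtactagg
Tmem37, chr1:120073781-120074030, minus strand: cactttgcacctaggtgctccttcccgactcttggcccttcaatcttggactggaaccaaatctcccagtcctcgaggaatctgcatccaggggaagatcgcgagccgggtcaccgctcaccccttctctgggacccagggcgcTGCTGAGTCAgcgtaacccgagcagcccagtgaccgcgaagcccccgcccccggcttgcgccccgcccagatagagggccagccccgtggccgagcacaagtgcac
Hfe, chr13:23710855-23711104, minus strand: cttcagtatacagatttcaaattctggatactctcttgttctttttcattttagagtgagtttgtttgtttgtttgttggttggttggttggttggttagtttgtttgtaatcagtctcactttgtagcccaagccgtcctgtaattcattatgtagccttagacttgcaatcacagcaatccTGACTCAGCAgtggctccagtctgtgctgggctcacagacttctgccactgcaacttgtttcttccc
H2-Aa, chr17:34287824-34288073, minus strand: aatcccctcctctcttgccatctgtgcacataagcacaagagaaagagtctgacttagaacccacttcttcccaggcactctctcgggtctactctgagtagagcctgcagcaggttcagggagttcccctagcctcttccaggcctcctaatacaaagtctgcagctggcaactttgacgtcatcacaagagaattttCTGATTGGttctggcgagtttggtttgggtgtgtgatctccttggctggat
H2-Eb1, chr17:34305617-34305866, plus strand: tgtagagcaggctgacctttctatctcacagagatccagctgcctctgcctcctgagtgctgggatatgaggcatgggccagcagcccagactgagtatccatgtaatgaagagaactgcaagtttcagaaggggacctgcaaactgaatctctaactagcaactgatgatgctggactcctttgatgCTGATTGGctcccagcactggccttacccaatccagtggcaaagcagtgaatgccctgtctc

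In Mmp12 the AP-1 site lay 44 to 38 bases before the start site shown, and its other RefSeq promoter held no match. Of 41 named genes looked up, 27 had a promoter entry, and among these Rbp4, which rose, and Rufy4, which fell, also held TGAGTCA. The remaining named genes were not looked up singly. The extended site lay 106 to 97 bases before the start of Tmem37, a calcium channel subunit-like protein, and 67 to 58 bases before that of Hfe, the hemochromatosis protein, on the opposite strand. Tmem37 rose by 7.81 ± 1.58 (adjusted p = 0.00332 by limma) and Hfe by 1.54 ± 0.23 (adjusted p = 0.000457 by limma). In windows of 300 bases (250 before and 50 after the start) TGAGTCA was present in 5.2% of all 32851 promoters, in 6.21% of 1867 promoters of genes that rose, in 4.14% of 2368 of genes that fell and in 3.48% of 9134 of genes that did not pass. TGCTGAGTCA was present in 0.155% of all promoters, in 0.214% for genes that rose, 0.0845% for genes that fell and 0.109% for genes that did not pass. The genes that fell and hold it were Mirt1 and Parp16, and Ikbkg and Zfp788 rose beside Tmem37 and Hfe. CTGATTGG was present in 4.1% of all promoters, in 4.45% for genes that rose, 6.67% for genes that fell and 5.08% for genes that did not pass. A match is a description of the letters and not a bound site.

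More of the genes that mark alveolar macrophages fell than rose. The counts of this list and of those below stand beside the 11.6% of all genes that rose and the 15.7% that fell. Of 35 identity genes tested, 20 fell, 3 rose and 12 did not pass, with a median difference of -1.03 beside -0.18 over all genes. The median level of the list was 6.36, 5.87 and 6.55 on the Bach1 KO arrays and 4.22, 4.52 and 4.21 on the DKO arrays. Cidec, a lipid droplet protein, had the lowest difference of the list, from 6.41, 5.83 and 6.60 to -6.62, -7.41 and -4.56 (-12.47 ± 0.66, adjusted p = 1.38e-07 by limma), with 1 DKO array well above background, and was at -13.29 without DKO replicate 3 and at -11.87 without DKO replicate 2. A dimmer probe of Cidec differed by -6.62. Siglecf, the lectin by which these cells are recognised in sorts, fell from 5.16, 5.41 and 5.20 to -3.08, -2.27 and -2.32 (-7.81 ± 0.47). Il18, an inflammasome cytokine (-6.40 ± 0.27), Ear2, an eosinophil-associated ribonuclease (-2.95 ± 0.24), and Cd2, an adhesion receptor (-4.06 ± 0.28), fell. Pparg itself fell by a smaller amount, from 5.77, 5.60 and 5.66 to 4.54, 4.94 and 5.34 (-0.74 ± 0.22, adjusted p = 0.0296 by limma). The members that rose were Cdh1, E-cadherin (1.79 ± 0.27), the transcription factor Bhlhe40 (1.70 ± 0.31) and Cd200r1, an inhibitory receptor (1.40 ± 0.45). Itgax, the integrin CD11c that is also used to identify these cells, lay at 6.24, 6.13 and 6.08 in Bach1 KO and at 6.21, 6.31 and 6.95 in DKO, with overlap and no call (adjusted p = 0.352 by limma), and Chil3 did not pass either (-0.29 ± 0.27). Pparg, Cdh1, Bhlhe40, Cd200r1, Itgax and Chil3 were named after their values were seen.

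Among lipid genes the falls outnumbered the rises. Of 28 PPARgamma target and lipid droplet genes, 12 fell, 1 rose and 15 did not pass, with a median of -0.75. Acot1, an acyl-CoA thioesterase (-7.29 ± 0.32), Dgat2, which makes triglyceride (-3.93 ± 0.28), and Lpl, lipoprotein lipase (-3.61 ± 0.27), fell, while the fatty acid receptor Cd36 rose (1.77 ± 0.22). Lpl lay at 6.23, 6.29 and 6.29 in Bach1 KO and at 2.54, 3.15 and 2.31 in DKO. Of 17 genes of cholesterol efflux and LXR targets, 8 fell, 3 rose and 6 did not pass. The apolipoprotein Apoc1 (-7.31 ± 0.47), Mylip, which degrades the LDL receptor (-3.51 ± 0.36), and Nceh1, a cholesteryl ester hydrolase (-1.48 ± 0.17), fell, and Ch25h, which makes 25-hydroxycholesterol, rose (2.43 ± 0.29). Of 21 genes of sterol and fatty acid synthesis 3 fell and 2 rose, shares near those of all genes, and without Bach1 KO replicate 2 5 fell and 1 rose. Mvd, an enzyme of the mevalonate pathway, fell (-1.25 ± 0.22). Fasn, fatty acid synthase, was at -2.13 ± 0.62 and did not pass without Bach1 KO replicate 3 (-1.44, adjusted p = 0.0885) or without any 1 of the DKO arrays (highest adjusted p = 0.0684).

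Eicosanoid synthesis genes were lower in DKO in 6 of 15 members tested and higher in 1, and 8 did not pass. Ltc4s, leukotriene C4 synthase, fell from 7.20, 6.69 and 7.28 to 1.45, 0.79 and 1.06 (-5.96 ± 0.39, adjusted p = 6.21e-07 by limma), alongside Alox5. Pla2g15, a lysosomal phospholipase, fell (-1.95 ± 0.27) and Pla2g7, which inactivates platelet-activating factor, rose (4.13 ± 0.55). The list's median of -0.31 was 0.04 with quantile normalization.

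Every mitosis gene tested fell. Of 28 genes of mitosis and G2/M, 28 fell (15.7% of all genes fell), with differences from -5.92 to -1.94 and a median of -4.19. The median level of these genes was 2.56, 2.41 and 2.03 on the Bach1 KO arrays and -1.80, -1.85 and -1.90 on the DKO arrays. Ccnb2, cyclin B2, fell from 4.37, 3.94 and 3.68 to -1.96, -2.14 and -1.66 (-5.92 ± 0.29, adjusted p = 8.03e-08 by limma). Ccna2, cyclin A2, Cenpe, a kinetochore motor, and Nusap1, a spindle protein, fell by 5.25, 5.30 and 5.64 on the log2 scale. Of 28 genes of DNA replication and S phase, 21 fell, 0 rose and 7 did not pass, with a median of -1.80. Tk1, thymidine kinase, fell from 5.51, 4.96 and 5.39 to -1.78, -1.71 and -0.22 (-6.53 ± 0.40). Rrm2, a ribonucleotide reductase subunit (-3.90 ± 0.30), Gins2, a part of the replicative helicase (-3.46 ± 0.26), and Uhrf1, which keeps DNA methylation (-4.31 ± 0.39), fell.

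Among alternative activation and chemokine genes more members rose than fell. In the alternative activation list 13 of 21 genes rose and 1 fell, with a median of 1.95. Retnla, a secreted marker of this state, rose by 10.34 ± 0.74 (adjusted p = 1.21e-06 by limma), with 1 Bach1 KO array well above background, and was at 9.52 without Bach1 KO replicate 2 and at 11.12 without Bach1 KO replicate 1. Pdcd1lg2, the checkpoint ligand PD-L2, rose from 1.76, 1.70 and 1.61 to 4.84, 4.97 and 4.92 (3.22 ± 0.23). Of 25 chemokines and chemokine receptors 16 rose, 3 fell and 6 did not pass, with a median of 2.25. Cxcl14 fell (-5.17 ± 0.48), with 1 DKO array well above background, so that the rise was not shared by all chemokine genes.

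Inflammatory cytokine and NF-kB genes rose in 11 of 27 cases and fell in 3, and without DKO replicate 1 7 rose. Traf1, a signalling adaptor of TNF receptors, rose from -3.09, -3.11 and -1.66 to 4.05, 2.29 and 2.92 (5.71 ± 0.64), and the NF-kB subunit gene Rel rose by 3.38 ± 0.54. Tnfaip2 fell (-1.54 ± 0.24), as did Il18. Of 27 interferon-stimulated genes 6 rose, 1 fell and 20 did not pass, and without Bach1 KO replicate 1 4 rose. Usp18, an ISG15 protease, rose from -1.52, -1.52 and -2.10 to 3.58, 3.26 and 3.46 (5.14 ± 0.63), and Oasl2 (3.37 ± 0.53), Gbp3 (1.87 ± 0.28) and Ifit1 (3.75 ± 0.79) rose. Ifit1 was at 4.72 without Bach1 KO replicate 2 and at 2.74 without Bach1 KO replicate 3.

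Among matrix genes and secreted growth factors the rises outnumbered the falls. Matrix and matrix-remodelling genes rose in 11 of 22 cases and fell in 3. Mmp13, a collagenase, rose at least 724-fold (adjusted p = 1.74e-07 by limma), a bound of 1150 without Bach1 KO replicate 3. Timp1, an inhibitor of metalloproteinases, rose from 0.45, 0.71 and -0.07 to 5.53, 5.82 and 6.04 (5.43 ± 0.31), and Sdc1, the proteoglycan syndecan 1, rose by 6.91 ± 0.40. Of 17 secreted growth factors 8 rose, 1 fell and 8 did not pass, and without WT replicate 3 3 fell. Hbegf, an EGF receptor ligand, rose from -5.78, -6.47 and -6.57 to 4.90, 4.62 and 5.22 (11.19 ± 0.35, adjusted p = 7.94e-09 by limma), with 1 Bach1 KO array well above background. Pdgfa rose by 10.88 ± 0.62, also with 1 such array, and Vegfa, the angiogenic factor, rose from signals that no Bach1 KO array had well above background (adjusted p = 1.61e-07 by limma). Pdgfc went the other way, from 2.63, 2.58 and 2.49 to -2.82, -2.42 and -2.16 (-5.03 ± 0.44). Of 14 integrins 3 rose (21.4%) and 2 fell (14.3%), beside 11.6% and 15.7% of all genes, and without DKO replicate 3 5 rose. Itgb3 (6.64 ± 0.42), Itgb7 (6.20 ± 0.61) and Itgam, the integrin CD11b (4.03 ± 0.41), rose and Itgal, the integrin CD11a, fell (-3.29 ± 0.32). Dimmer probes differed by less, down to 2.22 for Itgb3 and 0.34 for Itgam. Without Bach1 KO replicate 2 Itgb7 was at 5.49.

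Receptor and complement genes were split. Of 17 complement genes 5 rose, 6 fell and 6 did not pass. All 3 chains of C1q rose, C1qa by 10.40 ± 0.69 with 1 Bach1 KO array well above background and C1qb by 5.34 ± 0.39, while C5ar1, the receptor for the anaphylatoxin C5a, fell from 4.78, 3.97 and 4.55 to -1.83, -2.02 and -2.23 (-6.46 ± 0.32). Of 19 scavenger and apoptotic-cell receptor genes 6 rose and 6 fell. Axl, a receptor tyrosine kinase for apoptotic cells, fell from 6.18, 6.04 and 6.19 to 1.23, 1.55 and 1.21 (-4.81 ± 0.20, adjusted p = 2.86e-08 by limma), as did Marco, and Mfge8, which bridges apoptotic cells to macrophages, rose (3.48 ± 0.41). Of 20 Fc and Toll-like receptors 2 rose and 6 fell. Fcgr4, an activating Fc receptor (-3.71 ± 0.26), and Fcgrt, the neonatal Fc receptor (-4.60 ± 0.33), fell, and Fcgr2b, the inhibitory Fc receptor (2.04 ± 0.26), and Tlr1 (5.85 ± 0.69) rose. Tlr1 was at 6.54 without Bach1 KO replicate 3.

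Of 26 genes of the ATF4 and unfolded protein response, 13 rose, 0 fell and 13 did not pass, with a median of 1.13, and without DKO replicate 1 8 rose. Asns, asparagine synthetase, rose by 3.73 ± 0.35, and Trib3 (3.84 ± 0.40), Mthfd2, a mitochondrial folate enzyme (3.54 ± 0.38), and the transcription factor Atf3 (2.71 ± 0.36) rose. Of 32 heme, iron and antioxidant genes, the class in which the known Bach1 targets lie, 5 rose (15.6%), 8 fell (25%) and 19 did not pass, beside 11.6% and 15.7% of all genes. In this list 5 fell without Bach1 KO replicate 1 or 3 or DKO replicate 1 or 2. Hmox1, named after its values were seen, overlapped between the groups, at 6.99, 7.23 and 7.62 in DKO, and did not pass (0.15 ± 0.33, adjusted p = 0.773 by limma). Tfrc, the transferrin receptor, rose (4.35 ± 0.37), as did Slc11a1, a phagosomal metal transporter (4.51 ± 0.50), and Slc40a1, the iron exporter ferroportin, fell from 4.97, 4.76 and 4.83 to 0.30, -0.00 and 0.56 (-4.56 ± 0.54). Nqo1, a quinone reductase, fell (-3.12 ± 0.43).

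Of 25 glycolysis genes 9 rose and 4 fell. Fbp1, an enzyme of gluconeogenesis, rose at least 153-fold, a bound of 239 without Bach1 KO replicate 3, and Eno2, an enolase, rose by 6.26 ± 0.32, while Aldoc, an aldolase (-4.42 ± 0.25), and Pdk1, which closes pyruvate entry into mitochondria (-2.94 ± 0.27), fell. Of 34 oxidative phosphorylation genes 7 fell (20.6%, beside 15.7% of all genes) and 0 rose, with a median of -0.52, and 1 fell without Bach1 KO replicate 1 or 3 or DKO replicate 1. With other scalings 3 to 5 fell. Ndufa4 fell by 1.66 on the log2 scale (adjusted p = 0.0094 by limma), while Ndufb8, Uqcrb and Ndufa1 lost their calls when Bach1 KO replicate 1, Bach1 KO replicate 3 or DKO replicate 1 was left out (adjusted p from 0.0569 to 0.125), and Uqcrb and Ndufa1 also without DKO replicate 3 (0.0902 and 0.0924), and Ndufb8 and Ndufa1 without DKO replicate 2 (0.0605 and 0.0649). Of 29 ribosomal protein genes 0 passed. Of 30 lysosome genes 6 rose (20%) and 1 fell (3.33%), beside 11.6% and 15.7% of all genes, and with quantile normalization 12 rose. Atp6v1h, a proton pump subunit (2.43 ± 0.38), Lgmn, legumain (1.17 ± 0.21), Psap, prosaposin (1.01 ± 0.22), and Gpnmb (1.27 ± 0.30) rose.

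Transcription factor genes changed in both directions. Of 23 AP-1, CNC and Maf factors, the families with which Bach proteins share sites and partners, 10 rose, 3 fell and 10 did not pass, and without Bach1 KO replicate 1 0 fell. Jdp2 (2.04 ± 0.30) and Fosl1 (2.83 ± 0.42), partners in AP-1 dimers, rose with Atf3. Of 27 other lineage factors 6 rose (22.2%), 4 fell (14.8%) and 17 did not pass, beside 11.6% and 15.7% of all genes. Egr1, an early response factor, rose (4.25 ± 0.37), as did Irf4, a factor of alternative activation (4.75 ± 0.66), while Rxra, the partner of PPARgamma (-2.41 ± 0.29), and Cebpd (-1.72 ± 0.27) fell. Without Bach1 KO replicate 1 Irf4 was at 5.51, and without Bach1 KO replicate 3 at 3.82.

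**Figure D2:**
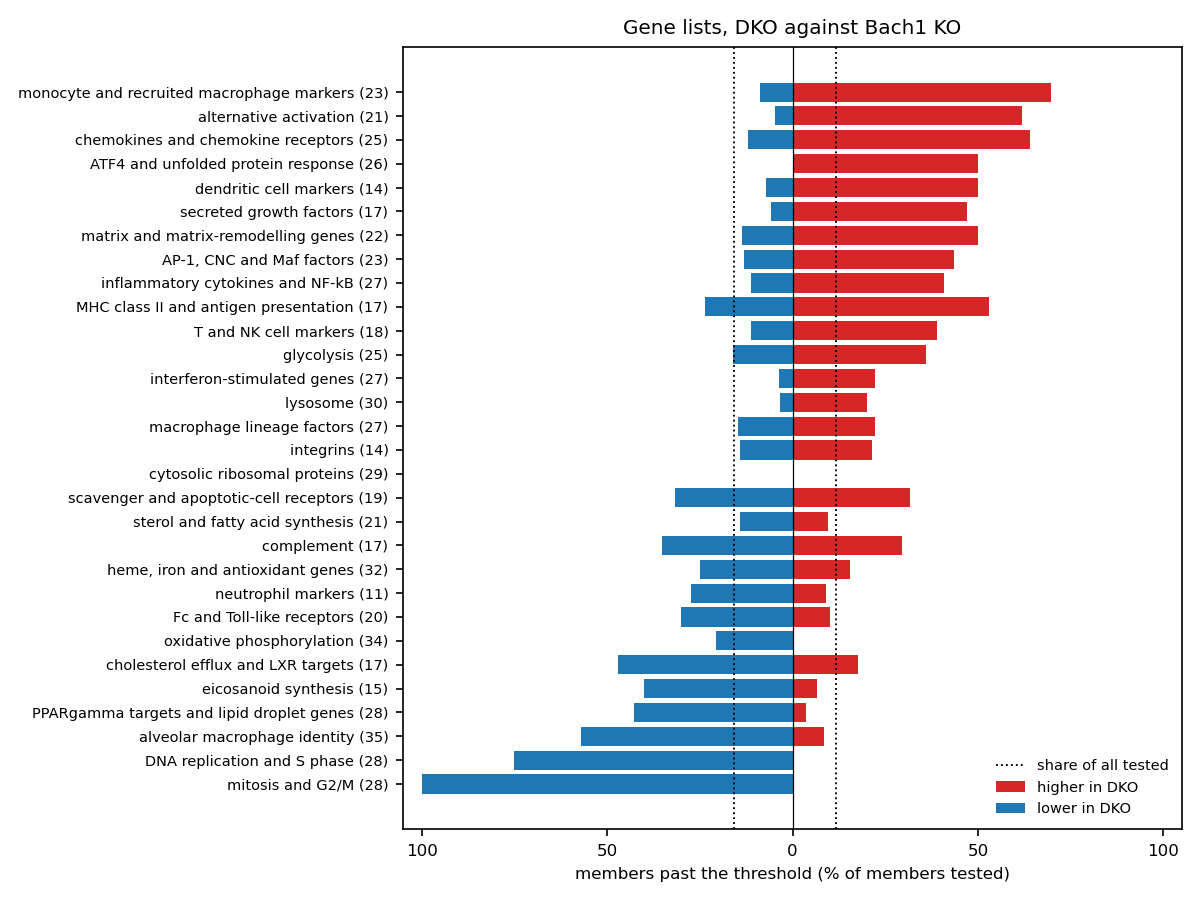
Share of the members tested (%) that were higher in DKO (red, to the right) and lower in DKO (blue, to the left) than in Bach1 KO, for each gene list with at least 10 members tested (number in brackets), with dotted lines at the shares of all genes tested, 11.6% higher and 15.7% lower. Mitosis and DNA replication genes lie at the bottom with 28 of 28 and 21 of 28 lower, and monocyte markers at the top with 16 of 23 higher.

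The classical MHC class II chains and their invariant chain rose. Of 17 genes of MHC class II and antigen presentation, 9 rose, 4 fell and 4 did not pass, with a median of 1.02. H2-Eb1, a beta chain, lay at 0.37, 1.49 and 1.48 in Bach1 KO and at 6.71, 6.37 and 7.28 in DKO (5.68 ± 0.31, adjusted p = 1.9e-07 by limma). H2-Aa, the alpha chain of the other isotype, rose from -2.36, -0.53 and -0.58 to 4.96, 4.46 and 4.93 (5.94 ± 0.51). H2-Ab1, its beta chain, rose by 3.95 ± 0.22, and Cd74, the invariant chain that escorts class II molecules, from -0.36, 1.34 and 0.10 to 6.41, 6.17 and 5.33 (5.61 ± 0.48). The H2-Aa difference was 5.34 with Bach1 KO replicate 1 left out. Ciita, the master activator of these genes, rose from -2.09, -2.68 and -0.48 to 1.92, 0.28 and 1.44 (2.96 ± 0.61, adjusted p = 0.00375 by limma). The peptide-loading gene H2-DMa fell, from 5.78, 5.55 and 5.20 to 2.54, 2.26 and 3.47 (-2.75 ± 0.31), so that the class II genes did not all move one way. Ciita and H2-DMa were named after their values were seen.

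The same loss was measured with Bach1 present, in Bach2 KO against WT. Those arrays do not enter the means of DKO or Bach1 KO, but share the estimate of spread in the fit. The genes tested were those kept by the filter on DKO or Bach1 KO. In Bach2 KO against WT 8213 genes and transcripts passed (38.1%), 2702 higher and 5511 lower. Of the 2508 that rose in DKO, 1617 rose there too, which is 64.5% of the former and 59.8% of the latter, and of the 3384 that fell 2412 fell there too, 71.3% and 43.8%. Across all genes tested the differences on both backgrounds had a Pearson r of 0.81 and a Spearman rho of 0.69, as a description, since genes are not independent replicates. Among the genes that passed in DKO against Bach1 KO, 93.8% had the same sign in Bach2 KO against WT, and where both passed in 1 direction the median ratio of the differences was 1.01. Arg1 (12.26 ± 1.57), Mmp12 (9.17 ± 0.51), Il18 (-5.80 ± 0.27) and Acot1 (-8.10 ± 0.32) had differences there close to those given above, with an interaction that did not pass in each.

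Whether the difference was another without Bach1 than with it was tested by the interaction, the DKO minus Bach1 KO difference minus the Bach2 KO minus WT difference. It passed for 123 of 21541 (0.571%), 20 higher (0.0928%) and 103 lower (0.478%), while 3217 had an unadjusted p under 0.05. Of the 123, 74 moved the same way on both backgrounds and further in DKO, 7 the same way and less far, 20 passed only without Bach1, 14 only with it, and 8 passed in opposite directions. The count ranged from 52 without Bach2 KO replicate 1 to 227 without WT replicate 2, and was 62 without WT replicate 1, 65 without Bach1 KO replicate 1 or DKO replicate 1, 67 without Bach2 KO replicate 2 and 73 without DKO replicate 2. Since all DKO arrays lie on slide 3, an interaction cannot be told apart from a difference of that slide.

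**Figure D3:**
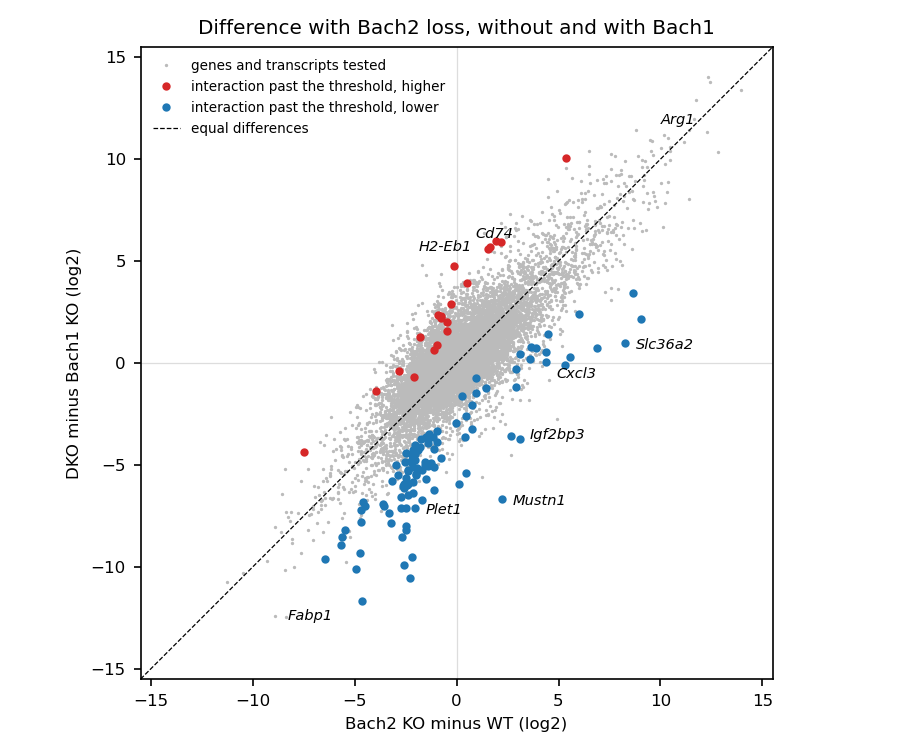
Each point is a gene or transcript, with its difference (log2) in Bach2 KO against WT on the x axis and in DKO against Bach1 KO on the y axis, and the dashed line marks equal differences. The 123 whose interaction passed are coloured, 20 higher (red) and 103 lower (blue); Mustn1 rests on DKO signals at background, H2-Eb1 lies at 1.63 and 5.68 and Plet1 at -2.04 and -7.10.

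Of the 17 antigen presentation genes, 4 had a higher interaction past the threshold, beside 0.0928% of all genes, and 2 had one with quantile normalization, with no scaling, or with any 1 of 7 arrays left out. H2-Eb1 differed by 5.68 without Bach1 and by 1.63 with it, an interaction of 4.05 ± 0.44 (adjusted p = 0.00219 by limma). The interaction was 4.08 ± 0.69 for Cd74 (adjusted p = 0.0236 by limma), 3.78 ± 0.72 for H2-Aa (adjusted p = 0.0426 by limma) and 3.43 ± 0.32 for H2-Ab1 (adjusted p = 0.000897 by limma). In H2-Ab1 the mean levels were 6.15 in WT, 2.88 in Bach1 KO, 6.66 in Bach2 KO and 6.83 in DKO, with Bach1 KO lowest and both genotypes without Bach2 close together. H2-Eb1 had means of 5.15, 1.11, 6.78 and 6.79 in the same order, Cd74 of 4.16, 0.36, 5.69 and 5.97, and H2-Aa of 3.04, -1.16, 5.20 and 4.78. The interaction of H2-Eb1 and H2-Ab1 passed with each of the 12 arrays left out, while that of Cd74 did not without WT replicate 1, Bach1 KO replicate 1 or 3, any Bach2 KO array, or DKO replicate 1 or 2 (highest adjusted p = 0.0683). That of H2-Aa did not pass without WT replicate 1 or 2, Bach1 KO replicate 1, or any Bach2 KO or DKO array (highest adjusted p = 0.128). Scarf1, a scavenger receptor, rose in DKO (2.37 ± 0.39) and was at -0.93 ± 0.39 in Bach2 KO against WT, which did not pass (interaction 3.30 ± 0.56, adjusted p = 0.0243 by limma, and up to 0.0769 with 1 array left out).

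Mitosis genes showed the opposite. Of the 28, 9 had a lower interaction past the threshold, beside 0.478% of all genes, and 5 to 12 had one with 1 array left out. The list's median was -1.94 in Bach2 KO against WT and -4.19 in DKO against Bach1 KO. Its median level was 2.26, 2.56 and 2.73 in WT and 0.70, 0.62 and 0.46 in Bach2 KO, so that WT and Bach1 KO lay together, Bach2 KO lay lower and DKO lay lowest. Ccna2 had means of 3.56 in WT, 3.25 in Bach1 KO, 1.87 in Bach2 KO, and lay at -2.08, -2.09 and -1.82 in DKO (interaction -3.56 ± 0.33, adjusted p = 0.000897 by limma). Ccnb2 (-3.52 ± 0.41), Cenpe (-2.93 ± 0.41), Nusap1 (-3.16 ± 0.46) and Kif11, a spindle motor (-3.45 ± 0.51), had interactions that passed with each of the 12 arrays left out, while those of Plk1, Kif20a, Mki67 and Nuf2 did not (highest adjusted p = 0.135). Kif11, Plk1, Kif20a, Mki67 and Nuf2 were named after their values were seen, and Kif11 was well above background on 1 DKO array. In DNA replication, Rrm2 (-2.50 ± 0.42) and Gins2 (-2.09 ± 0.36) passed, and neither did when Bach1 KO replicate 1 or 2, Bach2 KO replicate 1 or DKO replicate 1 was left out.

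**Figure D4:**
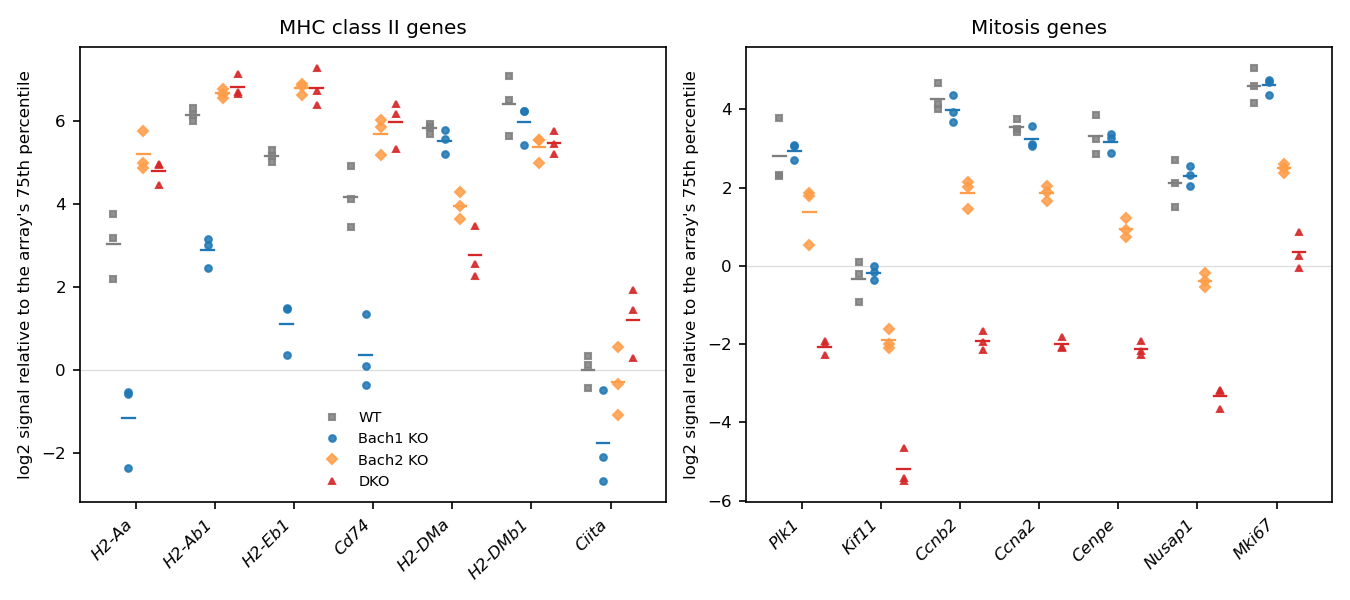
Level (log2 signal relative to the array's 75th percentile) on each array of the 4 genotypes for MHC class II genes (left) and mitosis genes (right), 3 arrays per genotype, with short lines at the means. H2-Ab1 is low in Bach1 KO alone (mean 2.88), and Ccna2 falls from a mean of 3.25 in Bach1 KO to between -2.09 and -1.82 in DKO.

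Several identity genes also fell further without Bach1. Plet1, a surface protein of alveolar macrophages, lay at 7.23, 6.63 and 7.59 in Bach1 KO and at 0.76, -0.36 and -0.24 in DKO (-7.10 ± 0.34), against -2.04 ± 0.34 in Bach2 KO against WT (interaction -5.05 ± 0.48, adjusted p = 0.000922 by limma). Krt19, a keratin (interaction -7.08 ± 0.96), Krt79 (-2.72 ± 0.41) and Ear1, an eosinophil-associated ribonuclease (-1.97 ± 0.37), passed too, making 4 of 35. Krt19 and Ear1 were named after their values were seen. Krt19 was well above background on 1 DKO array, and the interaction of Ear1 did not pass when any 1 of 10 arrays was left out (highest adjusted p = 0.117). Outside that list, Ces2c (-5.70 ± 0.67), Flvcr2 (-4.62 ± 0.65), Alox5 (-3.28 ± 0.43), Lipf (-3.15 ± 0.40), Fpr1 (-2.88 ± 0.41), Axl (-2.56 ± 0.28) and Lpl (-2.45 ± 0.38) fell on both backgrounds and further in DKO. The interaction of Lpl did not pass without WT replicate 1 or DKO replicate 1 (highest adjusted p = 0.0537 by limma). With the authors' deposited value matrix those of Krt19, Krt79, Ces2c, Flvcr2, Fpr1, Axl and Lpl did not pass (adjusted p from 0.0571 to 0.09 by limma).

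Some genes passed the test with Bach1 present and not without it. Slc36a2, an amino acid transporter, rose by 8.27 ± 0.88 in Bach2 KO against WT and was at 0.99 ± 0.88 here, with -0.76, -0.81 and -0.36 in Bach1 KO and -0.30, 0.40 and 0.94 in DKO (interaction -7.28 ± 1.24, adjusted p = 0.0249 by limma). Awat1, a wax ester synthase (interaction -5.27 ± 0.85), and St14, a membrane serine protease (interaction -5.41 ± 0.96), likewise rose with Bach1 present and did not pass without it. The differences of both in DKO against Bach1 KO, 0.31 and -0.07, changed sign when 1 array was left out, and the interaction of Awat1 did not pass without Bach2 KO replicate 1 or 2 (highest adjusted p = 0.065 by limma). Nor did that of Awat1 pass with the authors' deposited value matrix (adjusted p = 0.0687 by limma). Cxcl3, a neutrophil-attracting chemokine named after its values were seen, rose by 4.39 ± 0.33 in Bach2 KO against WT and lay at 0.02, 0.13 and 0.47 in Bach1 KO and at 0.44, 0.48 and -0.07 in DKO (interaction -4.31 ± 0.47, adjusted p = 0.00219 by limma). The interaction of Slc36a2 did not pass without any 1 of the arrays of WT replicate 1, Bach1 KO, Bach2 KO, or DKO replicates 1 and 2 (highest adjusted p = 0.0807), nor that of St14 without most arrays (highest adjusted p = 0.0993), and that of Cxcl3 passed with each array left out.

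A small number passed on both backgrounds in opposite directions, 15 higher and 8 lower in DKO. Mustn1, a small nuclear protein of muscle, fell at least 25.5-fold here, from -1.53, -0.21 and -0.92 in Bach1 KO to signals that no DKO array had well above background, and rose by 2.22 ± 0.61 in Bach2 KO against WT. Its interaction passed in the fit, but rests on DKO signals at background, so that its size was not measured. Igf2bp3, an RNA-binding protein, fell from -0.75, -0.94 and 1.35 to -3.79, -4.06 and -3.59 and rose by 3.09 ± 0.75 in Bach2 KO against WT (interaction -6.80 ± 1.06, adjusted p = 0.0162 by limma, and 0.0502 without WT replicate 1), and its difference here was -2.97 without Bach1 KO replicate 3. Trib2, a pseudokinase, fell at least 3.44-fold, a bound of 1.93 without Bach1 KO replicate 3 and of 6.08 without Bach1 KO replicate 1. Its interaction likewise has no measured size and did not pass when any of 8 of the 12 arrays was left out singly (highest adjusted p = 0.101 by limma). In the other direction Fam76a rose by 1.29 ± 0.39 here and was at -1.79 ± 0.39 there (interaction 3.08 ± 0.55, adjusted p = 0.0331 by limma), but neither its call nor its interaction passed without any 1 Bach1 KO array or without DKO replicate 1 or 2 (adjusted p of the call up to 0.112). Lmtk2, Atic, Srf and Rad9b had opposite calls with an interaction that did not pass. Their calls were lost when any 1 of the following was left out: for Lmtk2 Bach1 KO replicate 1 or DKO replicate 1 or 2 (highest adjusted p = 0.108 by limma), for Atic WT replicate 1, Bach1 KO replicate 3, Bach2 KO replicate 1 or 2 or DKO replicate 1 or 2 (0.144), for Rad9b Bach1 KO replicate 1 or 3 or DKO replicate 1 or 2 (0.0954). Rad9b fell at least 3.60-fold, a bound of 2.27 without Bach1 KO replicate 1 and of 5.68 without Bach1 KO replicate 2. Srf lost its call without Bach1 KO replicate 2 and was at -0.79 and -0.34 without DKO replicates 1 and 3, where another of its probes, which went the opposite way, was read.

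Markers of other cells that a lavage sort could hold were read beside these results. A marker dim in Bach1 KO could enter the test only through DKO, which favours a rise. One dim in DKO could enter only through Bach1 KO, which favours a fall. Of 23 monocyte and recruited macrophage markers tested, 16 rose, 2 fell and 5 did not pass, and the summed level of the 27 on the array was 7.64 to 8.06 in Bach1 KO and 8.94 to 9.63 in DKO. F13a1 and C1qa were among those that rose, as was Ccr2 (2.25 ± 0.50), named after its values were seen, while Cd300e fell from 2.87, 2.79 and 2.61 to -5.47, -5.39 and -7.35. Its difference of -8.83 ± 0.58 was -8.19 without DKO replicate 3. Treml4 also fell, and Vcan and Ace did not pass. In Bach1 KO most of the sum came from Trem2, Fn1, Cd14, Apoe and Spp1. Of these Spp1 went from 4.79, 4.74 and 4.13 in Bach1 KO to 6.51, 7.25 and 7.88 in DKO. Treml4, Vcan, Ace and the genes that made most of the sum were named after their values were seen. The part of such cells in the rises of F13a1, C1q genes and the chemokines was not tested.

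Of 14 dendritic cell markers 7 rose and 1 fell, with a summed level of 7.10 to 7.76 in Bach1 KO and 7.21 to 7.51 in DKO. Most of the sum in Bach1 KO came from Wdfy4 (6.26, 5.71 and 6.33), Siglech (5.51, 5.18 and 6.23) and Irf8 (5.17, 4.77 and 5.30). Wdfy4, the member that fell, lay at 4.58, 4.33 and 3.87 in DKO, so that the sum does not follow the members that rose. Wdfy4, Siglech and Irf8 were named after their values were seen. Ccr7 (8.85 ± 0.84), Cd209a (5.58 ± 0.57), Flt3 (4.71 ± 0.49) and Clec10a, a lectin, rose, while Zbtb46, the defining factor of that lineage, lay at -2.65, -2.99 and -2.76 in Bach1 KO and at -3.08, -3.56 and -3.15 in DKO, and was named after its values were seen. Without Bach1 KO replicate 2 Ccr7 was at 9.44, without Bach1 KO replicate 1 Cd209a was at 4.94, and without DKO replicate 1 Flt3 was at 4.09. A dimmer probe of Cd209a differed by 3.30. The part of dendritic cells in the MHC class II results was not tested.

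Of 18 T and NK cell markers 7 rose and 2 fell, with a summed level of 6.37 to 6.71 in Bach1 KO and 5.46 to 5.98 in DKO. Most of the sum came from Cd2 in Bach1 KO (6.63, 6.26 and 6.56) and from Il7r in DKO, and Cd2 is also on the alveolar macrophage identity list. Il7r, the interleukin 7 receptor, rose from -8.65, -5.15 and -6.64 to 5.04, 5.64 and 4.85 (11.99 ± 0.94), with 1 Bach1 KO array well above background, and was at 11.07 and 12.82 without Bach1 KO replicates 1 and 2. Icos rose at least 52.1-fold and Gata3 at least 16.7-fold, bounds of 82.2 and 26.5 without Bach1 KO replicate 3. Cd3d and Cd3g rose as well, while Cd3e, from the same T-cell receptor complex, lay at -1.11, -0.80 and -1.45 in Bach1 KO and at -1.50, -1.33 and -2.08 in DKO, with no rise, and Cd8a was well above background on 0 Bach1 KO and 2 DKO arrays. Cd3d, Cd3g, Cd3e and Thy1 were named after their values were seen. Of the 7 that rose, Il7r, Icos, Gata3, Cd3d, Cd3g and Thy1 passed the filter through DKO alone. Each had at most 1 Bach1 KO array well above background. With the filter asking for all 6 arrays the list's median moved from 0.86 to -0.13. Of 6 B and plasma cell markers 3 rose, Sdc1, Vpreb3 (at least 17.1-fold, or 26.9-fold without Bach1 KO replicate 3) and Cd79b (3.42 ± 1.17, and 5.21 without Bach1 KO replicate 2), which lost its call (adjusted p up to 0.183 by limma) without any 1 array but WT replicate 2 and Bach1 KO replicate 2, and no DKO array had Ms4a1, a defining gene, well above background. These 6 are those tested of 15 on the array. The 3 that rose passed the filter through DKO alone, with at most 1 Bach1 KO array well above background, so that the filter favoured their direction.

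Eosinophil markers had a summed level of 5.83 to 6.08 in Bach1 KO and -0.10 to 0.17 in DKO, with Siglecf and Ear6 (-6.41 ± 0.47) lower and Cebpe higher (2.77 ± 0.69, and 2.14 without Bach1 KO replicate 3). Both Siglecf and Ear6 are also genes of alveolar macrophages, and no array of either group had the granule genes Prg2 or Epx well above background. Of 11 neutrophil markers 1 rose and 3 fell: Mmp8 (-3.02 ± 0.38), Stfa2l1 (at least 5.61-fold) and Cxcr2 (-3.67 ± 0.67, and -2.98 without DKO replicate 1) fell, and S100a9 rose at least 23.8-fold, or 37.8-fold without Bach1 KO replicate 3. Of 3 mast cell and basophil markers Kit (3.29 ± 0.72) and Hdc (at least 5.56-fold, or 8.52-fold without Bach1 KO replicate 3) rose, and no array had Cpa3 well above background. Kit and Hdc passed the filter through DKO alone, with 1 and 0 Bach1 KO arrays well above background. With the filter asking for all 6 arrays the median of that list was -0.16. Of 9 epithelial markers Hopx alone rose (1.84 ± 0.45), with a summed level of 5.37 to 5.72 in Bach1 KO and 5.55 to 6.11 in DKO. Of 7 stromal and endothelial markers 4 rose, Cdh5 (at least 14.8-fold, or 23.6-fold without Bach1 KO replicate 3), Vwf (1.28 ± 0.32), Pecam1 and Lum. Pecam1 lost its call without Bach1 KO replicate 2 or 3 or any DKO array (highest adjusted p = 0.112 by limma), and Lum, at least 1.59-fold higher or 2.52-fold without Bach1 KO replicate 3, without Bach1 KO replicate 1 or DKO replicate 2 or 3 (highest adjusted p = 0.0659 by limma), and no array of either group had Col1a1 well above background. Of 5 erythroid and platelet markers Pf4 rose (3.67 ± 0.56, and 3.07 without Bach1 KO replicate 3) and Epor fell (-4.64 ± 0.41). Summed levels in Bach1 KO and DKO were 6.51 to 7.14 and 6.30 to 6.88 for neutrophil markers, and -2.06 to -1.83 and -1.34 to -1.15 for mast cell and basophil markers. They were 4.61 to 5.18 and 5.68 to 6.16 for stromal and endothelial markers, and 1.28 to 3.01 and 4.82 to 5.42 for erythroid and platelet markers. For B and plasma cell markers they were -1.32 to -0.13 and 1.48 to 1.95. The groups overlapped for neutrophil and epithelial markers and did not for the other 4. The part of these cells in the results was not tested.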

How the data were processed

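RNA of alveolar macrophages from 12 mice was hybridised to Agilent mouse arrays in a single colour (Cy3), 1 array per mouse and 3 per genotype. The authors deposited scanner output whose processed signal is an intensity, background-subtracted by Agilent Feature Extraction, version 10.7.3.1 per the file headers and 9.1 per the submitters' processing notes. The authors' deposited value matrix holds relative log2 values of 20850 probes. These match the scanner values once the latter are centred on each probe's median. The matrix served as an alternative, in which 11759 genes and transcripts were tested.

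For each array the log2 processed signal minus the 75th percentile of its non-control spots was taken. Control and outlier spots were left out, and spots of the same probe were averaged. Of 55681 probes, 28428 were kept, those well above background on all 3 arrays of Bach1 KO or of DKO. The brightest probe stood for a gene, which gave 21541 genes and transcripts, 13156 of them named. limma 3.58.1 (R 4.3.3, with version 1.17.8 of data.table) fitted the 4 genotype means to all 12 arrays, using a mean-variance trend and 8 residual degrees of freedom. P-values were adjusted by Benjamini-Hochberg over all 21541, with a threshold of 0.05. The script was tested on simulated data. The number of arrays limits the precision.

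Genes were named by rule: the targeted genes, the 10 largest differences and 5 largest bounds per direction, up to 4 members per list by adjusted p, the 5 largest interactions per direction, and up to 4 opposite calls per direction. Others are said to be named after their values were seen, and some genes that the rule names are not reported here. The members of the comparison and the 36 lists (775 genes, 664 tested) were chosen with earlier results of these data known. A summed level is the log2 of the summed linear levels of a list. Same-numbered replicates of Bach1 KO and DKO deviated with r of -0.02, 0.11 and 0.01, so that numbers were not taken to pair mice. Promoters came from RefSeq (GRCm38.p6), and 27 of the 41 genes looked up had an entry.

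The alternatives tried were other scalings, background correction, filters, probe rules, variance models, a replicate or slide block, the value matrix, and leaving out each array. The planned normexp on mean signals was not run, since the files used here hold no mean signal, and median signals were used instead, as chosen after seeing the data.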

Additional observations from a re-analysis of the deposited data

Results flagged for a closer look

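The difference that went with Bach2 loss was another on the Bach1-null than on the Bach1-present background for 123 genes and transcripts. This was read from the interaction term of limma's fit (adjusted p under 0.05). Among the named genes the difference was higher without Bach1 for Cd74 (4.08), H2-Eb1 (4.05), H2-Aa (3.78), H2-Ab1 (3.43), Scarf1 (3.30) and Fam76a (3.08), as differences of log2 differences. It was lower without Bach1 for Slc36a2 (-7.28), Igf2bp3 (-6.80), Ces2c (-5.70), St14 (-5.41) and Awat1 (-5.27). The fitted values of Mustn1 (-8.87) and Trib2 (-6.24) rest on DKO signals that no array had well above background and are not measured sizes. All DKO arrays share a slide that holds no other genotype, so that these differences cannot be told apart from one of slide and scan day. With groups of 3 no array was tested for standing apart.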

How the results depend on the processing

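Of the 31 alternatives, the other thresholds (adjusted p under 0.01, at least 2-fold) were applied to the counts only and not to single genes. Of 4545 values of the 159 named genes under the rest, 4455 kept their direction and their side of the threshold, 77 lost their call and 13 changed sign. In 144 genes neither occurred under any of these. With every probe on its own the same probe of each gene was read, so that these values do not compare a gene's probes. The count of genes past the threshold, 5892, was 3307 at an adjusted p under 0.01 and ranged from 4123 to 6655 with 1 array left out. That of the interaction, 123, was 1638 with array quality weights, 30 at an adjusted p under 0.01, and ranged from 52 to 227 with 1 array left out. With the replicate numbers as a block the counts were 5888 and 98, with the slide as a random block 5218 and 115, and with normexp on median signals 6149 and 166. The causes were not tested.

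Bach1 changed sign with quantile normalization (0.12), no scaling (0.27) and array weights (0.28), and ranged from -0.34 to 0.37 with 1 array left out. St14 was 0.21 with no scaling. With single arrays left out St14 ranged from -0.997 to 0.74, Srf from -0.79 to 1.27 and Awat1 from -0.16 to 0.85. List medians that changed sign were eicosanoid synthesis with quantile normalization (0.041), neutrophil markers with no scaling (0.025), and B and plasma cell markers with no filter (-0.047). With the filter asking for all 6 arrays they were glycolysis (-0.091), T and NK cell markers (-0.13), mast cell markers (-0.16) and stromal markers (-0.022), the last at -0.23 with a filter on any genotype. Scavenger receptors were at 0.18 with every probe on its own and 0.053 with the value matrix, where glycolysis was at -0.10.

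Levels not well above background give bounds only, and the bounds of rises that moved over 1.5 times were higher without Bach1 KO replicate 3, the array with the fewest spots above background.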
